A study of Mus musculus with 36 samples.

Results

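Murine pancreatic fibroblasts that had shared a dish with the tumour line KPC1 were set against the same fibroblasts grown with the tumour sub-clone V. The pair was chosen on the number of genes that separated each co-culture from fibroblasts grown alone (mono-culture), namely 8526 of 14439 genes tested for KPC1 and 8414 for clone V. Clone H, with 7826, lay just outside the choice, and the other 5 clones ran from 7186 for clone T down to 2763 for clone K. Those counts only describe how the pair was picked, and every test below concerns the direct contrast of KPC1 with clone V, which played no part in the choice. It rests on 8 libraries, 4 from each co-culture, out of 36 in the series.

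All the fibroblasts were of strain C57BL/6. Co-cultures lasted 48 h and were resolved by flow sorting on GFP, which only the tumour cells carried, so that the RNA came from the GFP-negative fraction. The labels do not explain the name KPC1, do not give the genotype of either tumour line, and do not say whether the 4 replicates of a group came from separate cultures or separate fibroblast isolates. The p-values therefore measure the spread between libraries of a group, which may be technical. In the main fit this spread was estimated over all 36 libraries of the 9 groups. The other groups varied less than KPC1 and clone V, as given below. The labelled cell type carried its markers, since all 15 fibroblast identity genes were tested and their summed level ran from 17966 to 22598 CPM (read counts scaled to library size) in the KPC1 libraries and from 15386 to 28311 CPM in the clone V libraries. Of 7 listed markers of pancreatic stellate cells, 5 were tested. The list, which shares Vim with the fibroblast list, summed to 2665 to 5067 CPM with KPC1 and 1825 to 3620 CPM with clone V. Its member Gfap lay between 0 and 0.285 CPM in the 8 libraries. The titles of the mono-culture libraries hold the letters PSC. The leukocyte marker Ptprc was at 0 in 7 of the 8 libraries and at 0.0509 CPM in the eighth.

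Fibroblasts around a pancreatic tumour lay down matrix, secrete chemokines and growth factors, and receive contact-dependent signals from their neighbours. Notch is such a signal: ligands of the Jagged and Delta families on one cell bind Notch receptors on the next, and the released receptor fragment acts with the DNA-binding factor RBPJ to switch on repressors of the Hes and Hey families. Wnt signalling works through secreted ligands and is held in check by its own targets, among them Axin2 and Nkd2. In bulk RNA, fewer cells of a type and less RNA per cell cannot be told apart.

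Of the 14439 genes tested, 1550 (10.7%) differed between the KPC1 and clone V co-cultures at an adjusted p under 0.05 in edgeR's quasi-likelihood test fitted to all 36 libraries. Of these, 910 (6.30% of genes tested) were higher with KPC1 and 640 (4.43%) were lower, and the median log2 fold change over all genes tested was 0.00. A difference of at least 2-fold was reached by 448 of the 1550 genes, 335 higher and 113 lower with KPC1. Both sets lay at low levels, with a median of 2.36 CPM for the 335 genes and 1.62 CPM for the 113, against 24.2 CPM over all genes tested.

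These counts changed with the libraries that entered the fit. The median standard deviation of log2 CPM between replicates was 0.249 with KPC1 and 0.253 with clone V, the 2 widest of the 9 groups, where the other 7 groups ran from 0.130 to 0.213. A fit to the 8 libraries alone called 133 genes, each also called with all 36 libraries. Leaving out KPC1 replicate 1 gave 613 calls and leaving out clone V replicate 1 gave 595, whereas leaving out any of the other 6 libraries gave 1236 to 1817. The text below therefore states, for a gene or for its list, where calls were lost in these steps.

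**Figure D1:**
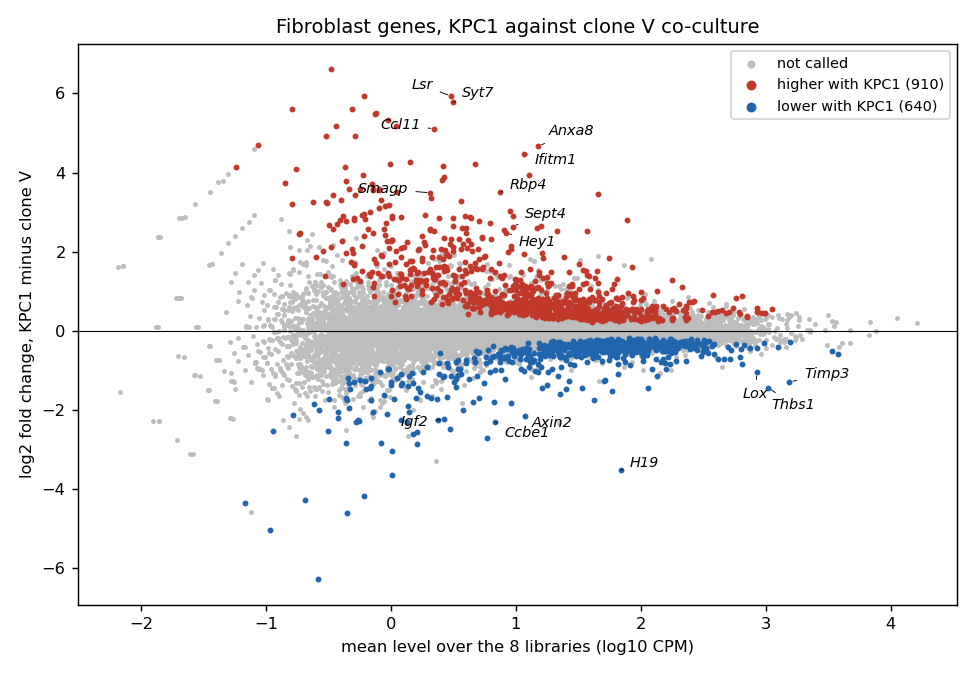
Log2 fold change of KPC1 minus clone V (vertical axis) against the mean level over the 8 libraries (horizontal axis, log10 CPM), with 1 point per gene tested that had reads in these libraries; red and blue points are the 910 and 640 genes called. The genes with the widest differences higher with KPC1, such as Lsr and Syt7, lie at low levels, while the abundant matrix genes Timp3, Thbs1 and Lox lie below the line.

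By a rule of fold change, p-value and absolute difference, 33 genes were singled out. The rule required that the groups did not overlap in the same 8 libraries, so survival of these calls is partly built in. Of the 33 genes, 30 stayed called whichever of the 8 libraries was left out. In the fit to the 8 libraries alone 26 stayed called, where 8.58% of all 1550 calls did. The calls of genes named below, the 33 or members of the gene lists, survived each left-out library and the fit to the 8 libraries unless a limit is stated for the gene or its list.

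The smallest p-value belonged to Sept4, a septin of the cytoskeleton encoded on chromosome 11 (87568903 to 87590539 in GRCm38, plus strand). Sept4 was at 17.5, 12.1, 16.1 and 19.1 CPM in the KPC1 libraries and at 1.63, 4.33, 2.07 and 2.33 CPM in the clone V libraries. The groups lay far apart (log2 fold change 2.64, SE 0.23, edgeR adjusted p = 9.15e-09), and mono-culture was at 1.54 ± 0.29 CPM (SD, n = 4), below every KPC1 library. Ifitm1, an interferon-induced membrane protein, was also higher with KPC1, with 32.1, 8.86, 24.3 and 24.2 CPM against 0.458, 1.44, 0.599 and 1.5 CPM (log2 fold change 4.48, SE 0.47, edgeR adjusted p = 4.75e-07). Its mono-culture level, 2.66 ± 0.57 CPM (SD, n = 4), lay between the groups, above every clone V library and below every KPC1 library. Of 23 other interferon-stimulated genes tested, 1 was called by edgeR (Oasl1, lower with KPC1, as were 4.43% of all genes tested), 1 by DESeq2, and 2 had an unadjusted edgeR p under 0.05. The edgeR count was 0 without KPC1 replicates 1 or 4, without clone V replicate 1 and in the fit to the 8 libraries. Cpne8, a calcium-dependent copine, was at 31.9, 18, 23.8 and 21.6 CPM with KPC1 and between 7.68 and 10.8 CPM with clone V (log2 fold change 1.34, SE 0.14).

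Among lists with at least 10 tested members, Notch pathway genes had the highest share of calls in the higher direction. Of 11 members, all tested, 7 were higher with KPC1 and 0 were lower, where 6.30% of all genes tested were called higher, and the median log2 fold change of the list was 1.22. The 4 KPC1 and 4 clone V libraries did not overlap for 6 of the 11, as was so for 9.83% of all genes tested. DESeq2 called 9 members higher. Without KPC1 replicate 1 or without clone V replicate 1 the count was 4, and with the 8 libraries alone it was 2, namely Jag2 and Hey1, while the list median stayed between 1.08 and 1.45 whichever library was left out.

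Among the ligands, Jag2 (chromosome 12, 112907819 to 112929776, minus strand) was at 12.2, 5.79, 10.8 and 6.56 CPM with KPC1 and at 1.17, 0.578, 1.80 and 1.68 CPM with clone V. The lowest KPC1 library was thus above the highest clone V library (log2 fold change 2.77, SE 0.44, edgeR adjusted p = 0.000206), and mono-culture averaged 0.614 CPM. Jag2 ranked the KPC1 libraries as did the summed epithelial markers described further below (646, 209, 402 and 327 CPM). The full order differed for Jag1, Notch3, Hey1 and Heyl. Even so, Jag1, Hey1 and Heyl were highest in KPC1 replicate 1, and Heyl was lowest in KPC1 replicate 2, as was the epithelial sum. Dll1 and Notch1 were not compared with the sum in this way. Whether tumour RNA adds to the level of Notch genes was not tested. Jag1 was more abundant and differed less, at 152, 116, 87.5 and 62.3 CPM against 52.6, 67.9, 55.6 and 39.5 CPM, so that the groups overlapped (log2 fold change 0.95, SE 0.25, edgeR adjusted p = 0.0136; 0.0985 without KPC1 replicate 1 and 0.0511 without clone V replicate 1). The third ligand, Dll1, was near the limit of detection with clone V, at 0.153 to 0.545 CPM against 0.627 to 2.95 CPM with KPC1, where 3 reads correspond to 0.144 to 0.185 CPM in these libraries (log2 fold change 2.42, SE 0.57; edgeR adjusted p = 0.00652, and 0.0599 without KPC1 replicate 1).

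The receptors split. Notch3 was at 357, 229, 359 and 223 CPM with KPC1 and at 82.5, 221, 107 and 132 CPM with clone V, and its call (log2 fold change 1.11, SE 0.27, edgeR adjusted p = 0.00897) was lost without clone V replicate 1 (adjusted p = 0.0572). Notch1 was at 126 to 194 CPM against 73.5 to 118 CPM (log2 fold change 0.64, SE 0.18, edgeR adjusted p = 0.0184), and its adjusted p was 0.0873 without KPC1 replicate 1, 0.070 without KPC1 replicate 3 and 0.114 without clone V replicate 1. Notch2 was not called (log2 fold change -0.04, SE 0.18).

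The target repressor Hey1 (chromosome 3, 8663359 to 8667256, minus strand) had the second smallest p-value of the 33 genes. Hey1 was at 16.1, 13.2, 12.2 and 15.3 CPM with KPC1 and at 2.09, 4.28, 1.96 and 1.79 CPM with clone V. No clone V library came near the KPC1 range (log2 fold change 2.48, SE 0.24, edgeR adjusted p = 5.41e-08), and mono-culture was at 0.240 ± 0.13 CPM (SD, n = 4). Over the 8 co-cultures, the mean level of Hey1 was highest with KPC1, at 14.2 CPM, and lowest with clone V, at 2.53 CPM, with clones E and T next to KPC1 at 9.91 and 9.42 CPM and clones K and H next to clone V at 3.15 and 3.28 CPM.

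Its relative Heyl was at 9.28, 4.88, 5.91 and 6.44 CPM with KPC1 and at 1.02, 3.56, 0.490 and 1.02 CPM with clone V. The call for Heyl (log2 fold change 2.10, SE 0.50, edgeR adjusted p = 0.00814) survived every left-out library but not the fit to the 8 libraries (adjusted p = 0.0911). The targets Hey2, Nrarp and Hes1 were not called, with log2 fold changes of 1.22 (SE 0.45), 1.36 (SE 0.48) and 0.35 (SE 0.34). Neurl1b, a ubiquitin ligase that acts on Notch ligands and was not on the list, was at 29.8, 29.5, 21.5 and 31.8 CPM with KPC1 and between 7.43 and 11.4 CPM with clone V (log2 fold change 1.5, SE 0.17, edgeR adjusted p = 1.02e-06).

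**Figure D2:**
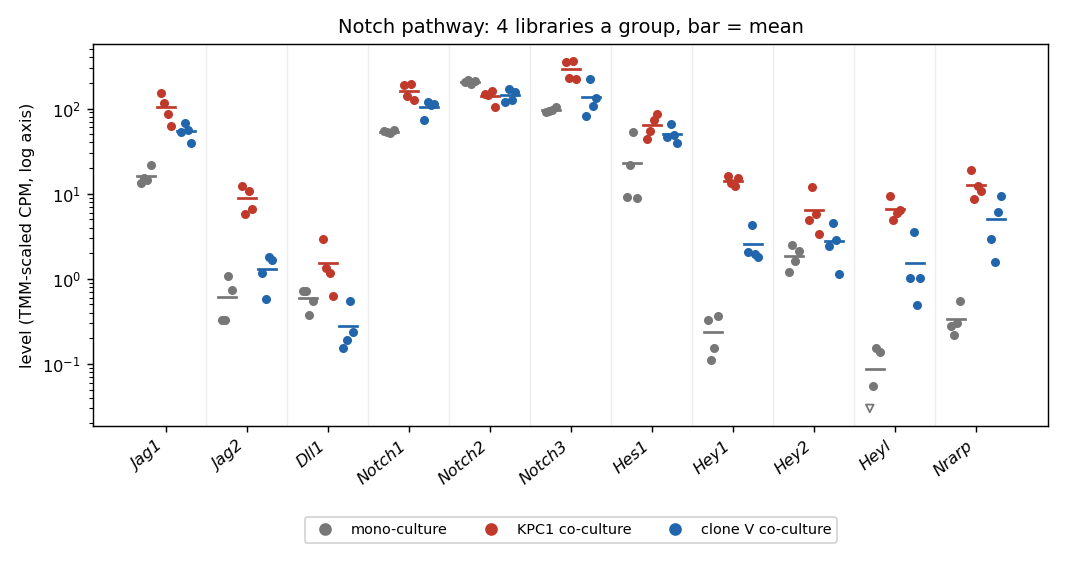
Levels of the 11 Notch pathway genes (vertical axis, TMM-scaled CPM on a log axis) in the 4 libraries of mono-culture, KPC1 and clone V co-culture; bars are means, and open triangles at the lower edge are values under 0.03 CPM. Jag2, Dll1, Hey1, Heyl, Notch1 and Notch3 show KPC1 points above all clone V points, whereas Notch2 and Hes1 overlap.

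The letters GTGGGAA, the core of the RBPJ site, were searched on both strands of the RefSeq promoter windows (GRCm38.p6, 250 bases before to 50 after the start site), where 6.38% of 32851 windows held them. Windows were found for 8 of the 11 Notch genes, not including Hey1 and Heyl, and of their 9 windows only that of Hey2 held the letters.

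The Wnt feedback gene Axin2 went the other way. Axin2 (chromosome 11, 108920349 to 108950783, plus strand) was at 4.38, 3.20, 5.24 and 4.39 CPM with KPC1 and at 9.56, 29.5, 16.6 and 20.9 CPM with clone V. The groups did not overlap (log2 fold change -2.15, SE 0.41, edgeR adjusted p = 0.0015). Both co-cultures were above mono-culture, which was at 0.680 ± 0.44 CPM (SD, n = 4), and KPC1 had the lowest mean level of Axin2 of the 8 co-cultures, at 4.30 CPM, where the highest, clone N, was at 37.4 CPM.

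Of 19 tested Wnt ligands, R-spondins, antagonists and feedback genes, 3 were lower with KPC1 and 1 was higher (4.43% and 6.30% of all genes tested were), with a list median of -0.29. The count of 4 was 2 without KPC1 replicate 1 and 7 without clone V replicate 3. In the fit to the 8 libraries it was 1, Axin2. The others called were less stable than Axin2. Nkd2, a feedback inhibitor, was at 3.56 to 4.56 CPM with KPC1 and at 2.54, 24, 12.6 and 18.3 CPM with clone V, so that clone V replicate 1 was below all KPC1 libraries (log2 fold change -1.82, SE 0.51, edgeR adjusted p = 0.0229). Its adjusted p was 0.0709 without KPC1 replicate 1, 0.0548 without KPC1 replicate 2 and 0.0892 without clone V replicate 2. The ligand Wnt11 was at 1.95, 3.44, 1.23 and 1.37 CPM against 4.48, 4.86, 3.81 and 5.56 CPM (log2 fold change -1.23, SE 0.35, edgeR adjusted p = 0.0224), and its adjusted p was 0.0634, 0.0685, 0.0525 and 0.0507 without KPC1 replicates 1, 3 and 4 and without clone V replicate 1.

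Wnt4, the ligand that was higher with KPC1, had 57 reads in the 4 KPC1 libraries and 4 in the 4 clone V libraries, a ratio of 15.5 with a 95% counting interval of 5.74 to 58.9, which covers counting error only. The edgeR adjusted p of Wnt4 was 0.0131, and 0.0608 without clone V replicate 1. The transcription factors of the pathway, Lef1 and Tcf7, were not called, with log2 fold changes of -0.37 (SE 0.20) and -0.21 (SE 0.15).

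The promoter window of Wnt11 is shown because it is the Wnt gene called here whose window holds the core letters of the TCF/LEF site, TCAAAG, which 16% of all promoter windows hold on either strand; the match is in capitals (RefSeq, GRCm38.p6, chr7:98834862-98835161, plus strand). Of the 23 windows found for 16 genes of the Wnt list, 3 (13%) held these letters.
Wnt11: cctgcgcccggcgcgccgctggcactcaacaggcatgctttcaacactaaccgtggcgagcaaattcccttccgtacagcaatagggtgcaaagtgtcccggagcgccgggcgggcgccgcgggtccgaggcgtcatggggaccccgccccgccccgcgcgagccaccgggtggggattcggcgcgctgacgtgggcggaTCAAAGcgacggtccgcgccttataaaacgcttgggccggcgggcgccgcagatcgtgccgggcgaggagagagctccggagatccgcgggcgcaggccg

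The imprinted neighbours H19 and Igf2 were both lower with KPC1. H19, a long non-coding RNA, lies on chromosome 7 at 142575529 to 142578143, and Igf2, a growth factor, lies 72.6 kb away at 142650766 to 142666816, both on the minus strand. H19 was at 6.12, 11.8, 12.7 and 13.9 CPM with KPC1 and at 152, 181, 66.4 and 111 CPM with clone V. Among the 33 singled-out genes this was the lowest log2 fold change (log2 fold change -3.52, SE 0.61, edgeR adjusted p = 0.000626), and mono-culture was at 2.88 ± 1.1 CPM (SD, n = 4). Clone V had the highest mean level of H19 of the 8 co-cultures, at 128 CPM, followed by clone H at 19 CPM.

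Igf2 was at 0.633, 0.965, 1.11 and 1.03 CPM with KPC1 and at 3.76, 6.93, 2.94 and 3.95 CPM with clone V (log2 fold change -2.23, SE 0.43, edgeR adjusted p = 0.0015), and the clone V mean was again the highest of the 8 co-cultures. Of the 12 imprinted growth network genes, 3 were lower and 1 was higher with KPC1, beside 4.43% and 6.30% of all genes tested. The others called were Peg3, at 12.6 to 25.7 CPM with KPC1 and 15.5 to 94.4 CPM with clone V, and Mest, at 0.844 to 3.39 CPM against 0.538 to 1.58 CPM. Their edgeR adjusted p-values of 0.0177 and 0.0395 rose above the threshold without KPC1 replicate 1, at 0.0616 and 0.126. Peg3 was also lost without KPC1 replicate 2 (0.0548) or clone V replicate 4 (0.102), and Mest without KPC1 replicate 3 (0.142) or clone V replicates 2, 3 or 4 (0.0766, 0.082 and 0.0974). Neither was called in the fit to the 8 libraries (0.221 for Peg3 and 0.218 for Mest).

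Of 22 tested growth factors, receptors and binding proteins, 3 were called higher and 5 lower with KPC1, beside 6.30% and 4.43% of all genes tested. Pdgfc, a ligand of PDGF receptors, was at 39.0, 43.3, 35.6 and 28.8 CPM with KPC1 and at 65.4, 65.1, 56.9 and 60.8 CPM with clone V (log2 fold change -0.76, SE 0.12, edgeR adjusted p = 0.000242). The insulin-like growth factor Igf1 was at 16.9, 21.9, 37.8 and 44.8 CPM against 29.1, 119, 90.4 and 109 CPM, and clone V replicate 1 lay inside the KPC1 range. Igf1 was called (log2 fold change -1.52, SE 0.31, edgeR adjusted p = 0.00268), with an adjusted p of 0.148 in the fit to the 8 libraries. Igfbp7, which binds insulin-like growth factors, was higher with KPC1, at 317, 397, 305 and 306 CPM against 164, 234, 198 and 196 CPM (log2 fold change 0.74, SE 0.13). The list count was 8 in all, 5 without KPC1 replicate 1, KPC1 replicate 3 or clone V replicate 2, and 4 without clone V replicate 1.

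Other genes with the widest differences lower with KPC1 coded for secreted, surface and cytoplasmic proteins. Ccbe1, which promotes the processing of the lymphatic growth factor VEGF-C, was at 1.85, 1.81, 3.76 and 1.77 CPM with KPC1 and at 9.46, 9.72, 10.4 and 16.1 CPM with clone V (log2 fold change -2.31, SE 0.27, edgeR adjusted p = 1.14e-06). Mono-culture, at 7.61 ± 1.0 CPM (SD, n = 4), was nearer to clone V. Capn6, a member of the calpain family, was at 15.3, 24.7, 21.9 and 16.1 CPM against 94.4, 85.9, 35.6 and 45.7 CPM (log2 fold change -1.75, SE 0.29). Itga10, a collagen-binding integrin chain, Bmper, a binder of BMPs, the acid-sensing channel Asic1 and the Patched-related Ptchd4 had log2 fold changes of -2.24 (SE 0.31), -1.47 (SE 0.25), -1.70 (SE 0.36) and -1.80 (SE 0.39). Usp17la, at -1.68 (SE 0.32), and the carboxylesterase Ces1g, at -1.71 (SE 0.32), belong to families of near-identical copies among which reads may have been split, and Ces1g was not called in the fit to the 8 libraries (adjusted p = 0.102). Cntnap4, of the neurexin family, was lower by the same order (log2 fold change -1.73, SE 0.47, edgeR adjusted p = 0.0168). Its call was lost without KPC1 replicate 1 (0.0608), clone V replicate 1 (0.0821) or clone V replicate 2 (0.0581), and in the fit to the 8 libraries (0.0966).

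Of the 5 largest differences in mean CPM among called genes whose groups did not overlap, 4 were lower with KPC1 and belonged to matrix or cell surface genes (Timp3, Thbs1, Lox and Sdc2), and the other was Hspa5. Timp3, an inhibitor of metalloproteinases, was at 866, 1177, 843 and 707 CPM with KPC1 and at 1656, 3236, 2099 and 1797 CPM with clone V. Clone V was higher in every library (log2 fold change -1.29, SE 0.32, edgeR adjusted p = 0.0102), and the KPC1 values lay around those of mono-culture, which ran from 884 to 1158 CPM. Thbs1, a thrombospondin of the matrix, followed the same order at 501, 569, 734 and 450 CPM against 1132, 2138, 1136 and 1697 CPM (log2 fold change -1.44, SE 0.23, edgeR adjusted p = 0.000268). Lox, the enzyme that crosslinks collagen and elastin, was at 335, 572, 596 and 709 CPM against 825, 1272, 981 and 1505 CPM, both below mono-culture at 1875 to 2564 CPM. Its log2 fold change was -1.05 (SE 0.29, edgeR adjusted p = 0.0177), and the call was lost without KPC1 replicate 1 (0.0809) and in the fit to the 8 libraries (0.0671).

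Of the 16 tested matricellular and fibrillin glycoproteins, 3 were lower with KPC1 and 0 were higher (4.43% and 6.30% of all genes tested were), with a median of -0.27. These were Thbs1, Thbs2 and Fbln5, a fibulin of elastic fibres, and their number was 3 or 4 whichever library was left out and 3 in the fit to the 8 libraries. Fbln5 was at 103, 150, 117 and 116 CPM with KPC1 and at 198, 251, 192 and 230 CPM with clone V (log2 fold change -0.84, SE 0.19). Sdc2, a heparan sulphate proteoglycan of the cell surface, was at 414, 495, 462 and 474 CPM against 650, 1097, 718 and 836 CPM (log2 fold change -0.84, SE 0.13, edgeR adjusted p = 9.56e-05). The main fibrillar collagen chain Col1a1 was not called (log2 fold change -0.32, SE 0.20). Its partner chain Col1a2 was called lower with KPC1 (log2 fold change -0.52, SE 0.16, edgeR adjusted p = 0.0371), and that call was lost without KPC1 replicates 1, 2 or 4 (0.104, 0.0957 and 0.064), without clone V replicates 2 or 4 (0.147 and 0.0707) and in the fit to the 8 libraries. Hspa5, the endoplasmic reticulum chaperone, was the abundant gene higher with KPC1, at 1526, 1452, 1099 and 1235 CPM against 897, 766, 1044 and 922 CPM (log2 fold change 0.55, SE 0.17, edgeR adjusted p = 0.0315). Its call was lost without KPC1 replicates 1 or 2 (0.131 and 0.0787) or clone V replicates 1, 2 or 4 (0.0985, 0.0919 and 0.0515), and in the fit to the 8 libraries (0.107).

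Of 15 fibroblast identity genes, 1 was higher and 2 were lower with KPC1 (6.30% and 4.43% of all genes tested were), with a median of -0.23. The count of 3 was 1, with 0 lower, without KPC1 replicate 1 and in the fit to the 8 libraries, and 2 without KPC1 replicate 2 or clone V replicate 4. Of 9 tested markers of resting fibroblasts, 2 were lower (Cd34 and Pi16) and 0 were higher, with a median of -0.74, and the count was 1 without KPC1 replicate 1 and 0 in the fit to the 8 libraries. The 5 tested stellate cell markers had positive log2 fold changes with a median of 0.40, and 1 of them, Des, was called. The identity gene that was higher was Fap, a surface protease of activated fibroblasts, at 43.3, 48.3, 56.2 and 70.1 CPM with KPC1 and at 18, 30, 12.8 and 15.4 CPM with clone V (log2 fold change 1.51, SE 0.21, edgeR adjusted p = 3.52e-05), where mono-culture averaged 1.08 CPM. Des, the muscle-type intermediate filament desmin, was at 2.64, 3.80, 4.19 and 5.82 CPM against 0.967, 1.64, 1.20 and 1.62 CPM (log2 fold change 1.60, SE 0.19, edgeR adjusted p = 3.68e-06). Inhbb, which codes for a subunit of activin B, was lower with KPC1, at 16, 11.1, 17.4 and 17.4 CPM against 28.1, 50.1, 26.4 and 45.2 CPM (log2 fold change -1.27, SE 0.26, edgeR adjusted p = 0.00242).

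**Figure D3:**
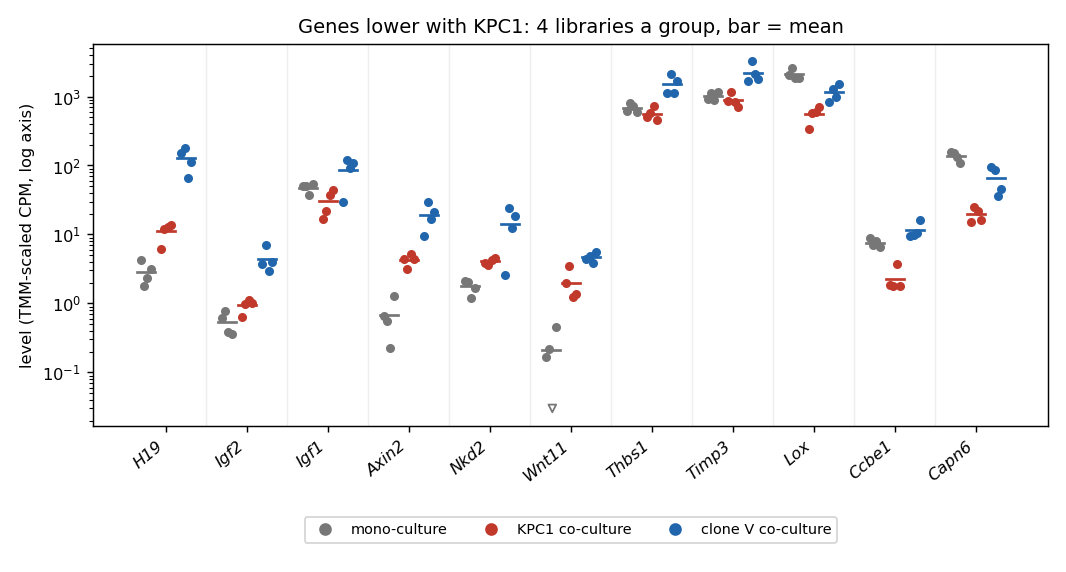
Levels of 11 genes called lower with KPC1 (vertical axis, TMM-scaled CPM on a log axis) in the 4 libraries of each group; bars are means, and open triangles are values under 0.03 CPM. Clone V points lie above all KPC1 points for H19, Igf2, Axin2, Thbs1 and Timp3, while clone V replicate 1 falls among the KPC1 points or lower for Igf1 and Nkd2.

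Several genes with the widest differences higher with KPC1 are known from epithelial cells, so the markers of tumour epithelium were read beside them. The sorted fibroblast RNA of both co-cultures held epithelial transcripts: the summed level of the 22 listed epithelial markers was 646, 209, 402 and 327 CPM in KPC1 replicates 1 to 4 and 46.2, 42.5, 145 and 245 CPM in clone V replicates 1 to 4, against 6.54 to 9.03 CPM in mono-culture. Clone V replicate 4 was thus above KPC1 replicate 2. Krt8, a simple keratin, was at 123, 32.6, 73.7 and 57.8 CPM with KPC1 and at 7.43, 6.35, 19.9 and 44.4 CPM with clone V, and was not called (log2 fold change 1.89, SE 0.68, edgeR adjusted p = 0.0682). Of 14 epithelial markers tested, 4 were called higher with KPC1 and 0 lower (6.30% and 4.43% of all genes tested were), with a median of 1.38. The count was 2 without KPC1 replicate 1, clone V replicate 1 or clone V replicate 2, and 1 in the fit to the 8 libraries. Epcam was at 0 in 7 of the 8 libraries and at 0.0616 CPM in KPC1 replicate 3. The part that tumour RNA may play in the differences was not tested, and no tumour line grown alone was analysed here.

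Lsr, a receptor of lipoproteins and of tricellular junctions (chromosome 7, 30957770 to 30973464, minus strand), had the highest log2 fold change of the 33 genes. Lsr was at 7.64, 4.04, 7.21 and 5.13 CPM with KPC1 and at 0.102, 0.193, 0 and 0.0598 CPM with clone V, where 3 reads are 0.144 to 0.179 CPM (fitted log2 fold change 5.93, SE 0.75, edgeR adjusted p = 7.67e-06). Within KPC1, Lsr was highest in replicate 1 and lowest in replicate 2, as was the epithelial sum (646 and 209 CPM). In clone V replicate 4, with an epithelial sum of 245 CPM, Lsr was at 0.0598 CPM. The level of Lsr in either tumour line is not known here, and a part of tumour RNA was not tested. Spint2, an epithelial protease inhibitor, was at 10.2, 3.38, 6.22 and 6.73 CPM against 0.102, 0.337, 0.926 and 1.44 CPM (log2 fold change 3.28, SE 0.64, edgeR adjusted p = 0.00168). Smagp, a small membrane glycoprotein of cell contacts, was at 5.75, 2.59, 4 and 2.91 CPM against 0, 0.433, 0.436 and 0.479 CPM (log2 fold change 3.49, SE 0.58).

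Syt7, a calcium sensor of vesicle fusion, was at 11.8, 2.35, 5.91 and 4.73 CPM with KPC1 and at 0.0509, 0.0963, 0.0545 and 0.239 CPM with clone V (fitted log2 fold change 5.78, SE 0.89, edgeR adjusted p = 0.000197). Anxa8, an annexin, was at 51.3, 16.4, 21.1 and 27.5 CPM against 0.610, 0.144, 0.817 and 3.23 CPM (log2 fold change 4.67, SE 0.82), and Palmd, which codes for palmdelphin, was at 26.1, 11.3, 41.8 and 16.6 CPM against 0.814, 0.530, 1.96 and 3.05 CPM (log2 fold change 3.94, SE 0.83). For Syt7, Anxa8 and Palmd the highest clone V value fell in replicate 4, the clone V library with the highest epithelial sum. Their lowest KPC1 value fell in replicate 2, the KPC1 library with the lowest epithelial sum. Ifitm1, Rbp4, Smagp, Spint2, Cxcl16 and Icam1 showed both features too, with clone V values of Syt7 and Icam1 near the limit of detection. Lsr, Ccl11, Acan, Cxcl5, Lbp and Aldh1a3 did not show both. A part of tumour RNA in these levels was not tested. Lbp, which binds bacterial lipopolysaccharide, was at 10.5, 2.41, 4.81 and 2.11 CPM against 0.153, 0.433, 0.381 and 0.359 CPM (log2 fold change 3.88, SE 0.52, edgeR adjusted p = 2.12e-05), and mono-culture was at 2.27 ± 0.38 CPM (SD, n = 4), within the KPC1 range. Acan, the cartilage proteoglycan aggrecan, was at 20.7, 4.22, 6.90 and 3.76 CPM against 1.48, 0.144, 0.109 and 0.120 CPM (log2 fold change 4.22, SE 0.81), and was not called in the fit to the 8 libraries (adjusted p = 0.0714).

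Of 14 tested genes that handle retinoids, the vitamin A derivatives, 4 were called higher and 2 lower with KPC1, beside 6.30% and 4.43% of all genes tested. Aldh1a3, which makes retinoic acid, was at 12.4, 2.23, 2.22 and 2.45 CPM with KPC1 and at 0.356, 0.144, 0.272 and 0.598 CPM with clone V (log2 fold change 3.82, SE 0.62, edgeR adjusted p = 0.000268; 2.74 without KPC1 replicate 1, adjusted p = 0.0035). Rbp4, the plasma carrier of retinol, was at 22.3, 5.07, 13.6 and 14.3 CPM against 0.661, 0.481, 0.708 and 3.17 CPM (log2 fold change 3.51, SE 0.71). Dhrs3, which reduces retinaldehyde, was also higher (log2 fold change 1.86, SE 0.40, edgeR adjusted p = 0.00379), while Crabp1, a carrier of retinoic acid in the cell, was lower, at 46.4, 47.4, 37.4 and 34.8 CPM against 135, 96.7, 50.8 and 73.1 CPM (log2 fold change -1.10, SE 0.24, edgeR adjusted p = 0.00377). Neither passed in the fit to the 8 libraries (0.0556 and 0.0798). The list count of 6 was 4 without KPC1 replicate 1 or clone V replicate 1.

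Among chemokines, 4 of 6 tested CXC genes were called higher with KPC1 and 0 were called lower. The other 2, Cxcl12 and Cxcl10, were not called and had negative log2 fold changes (-0.92 and -0.15). The summed level of the 11 listed CXC genes overlapped between the groups, at 104 to 440 CPM with KPC1 and 133 to 199 CPM with clone V. Both were below mono-culture, at 1319 to 1697 CPM. Of 8 tested CC chemokine and myeloid growth factor genes, 2 were higher and 0 were lower. Over all genes tested, 6.30% were called higher and 4.43% lower. The CXC count was 3 to 5 whichever library was left out. The CC count was 1 without KPC1 replicate 1 or clone V replicates 1 or 3. Both counts were 0 in the fit to the 8 libraries. Ccl11, the eosinophil attractant eotaxin, was at 1.11, 0.603, 6.22 and 9.41 CPM with KPC1 and at 0.0509, 0.241, 0 and 0.179 CPM with clone V (fitted log2 fold change 5.11, SE 0.85, edgeR adjusted p = 0.000375; 0.0624 in the fit to the 8 libraries). Cxcl5, a neutrophil attractant, was at 10.3, 0.965, 6.96 and 1.71 CPM against 0.102, 0.0481, 0.545 and 0.419 CPM (log2 fold change 4.17, SE 0.82, edgeR adjusted p = 0.00177; 0.0662 in the fit to the 8 libraries). Cxcl16 was at 13.1, 5.61, 9.49 and 7.64 CPM against 3.20, 2.74, 2.89 and 5.38 CPM (log2 fold change 1.34, SE 0.27, edgeR adjusted p = 0.00208; 0.0671 in the fit to the 8 libraries).

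Cxcl1 rested on a single library. It was at 292 CPM in KPC1 replicate 1 and at 5.67, 21.9 and 10.8 CPM in the other KPC1 libraries, against 4.93, 5.15, 9.48 and 10.7 CPM with clone V, so that the groups overlapped. Its log2 fold change was 3.46 (SE 0.78, edgeR adjusted p = 0.00564) and fell to 0.75 without KPC1 replicate 1 (adjusted p = 0.397). In the fit to the 8 libraries the edgeR adjusted p of Cxcl1 was 0.203. Ccl2, the monocyte attractant, behaved likewise, at 602 CPM in KPC1 replicate 1 and 67.9 to 216 CPM in the other KPC1 libraries, against 73.1 to 151 CPM with clone V, and its call (log2 fold change 1.29, SE 0.41, edgeR adjusted p = 0.0382) gave 0.38 without KPC1 replicate 1 (adjusted p = 0.54). It was also lost without clone V replicates 1, 3 or 4 (0.143, 0.0811 and 0.0584).

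The same library stood out for NF-kappaB feedback genes. Nfkbia, the inhibitor that NF-kappaB induces against itself, was at 168 CPM in KPC1 replicate 1 and between 36.2 and 56.7 CPM in the other 7 libraries, and Tnfaip3, another feedback inhibitor, was at 91.3 CPM against 17.7 to 30 CPM. Neither was called, and their log2 fold changes of 0.66 and 0.66 became -0.13 and -0.18 without that library. Of 15 tested genes of the IL-1 and NF-kappaB response, 3 were called higher (Icam1, Lcn2 and Nfkbiz), beside 6.30% of all genes tested. Without KPC1 replicate 1 the count was 1, Icam1. Without clone V replicate 1 the count was also 1, and without clone V replicates 2, 3 or 4 it was 2, and without KPC1 replicate 4 it was 5. Icam1, an adhesion molecule for leukocytes, was at 2.06, 0.362, 1.60 and 1.25 CPM with KPC1 and at 0, 0, 0.163 and 0.239 CPM with clone V (fitted log2 fold change 3.71, SE 0.73, edgeR adjusted p = 0.00177; 0.0125 without KPC1 replicate 1). In the fit to the 8 libraries Icam1 did not pass the filter on low counts, and 0 of the 13 list members tested there were called. KPC1 replicate 1 was also the library with the highest epithelial sum, and whether these features are linked was not tested.

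The Cxcl1 promoter window is shown because 3 matches to the kappaB pattern (GGGA, any 4 bases, then CC) lie in it, 2 of them overlapping on opposite strands; the matches are in capitals (RefSeq, GRCm38.p6, chr5:90890995-90891294, plus strand). The pattern, searched on both strands, occurred in 20.7% of all promoter windows and in 5 of the 8 windows found for the 11 CXC genes. Those 5 belong to Cxcl1, Cxcl2, Cxcl3, Cxcl9 and Cxcl10, of which Cxcl1 alone was called, so the pattern did not mark the CXC genes called here.
Cxcl1: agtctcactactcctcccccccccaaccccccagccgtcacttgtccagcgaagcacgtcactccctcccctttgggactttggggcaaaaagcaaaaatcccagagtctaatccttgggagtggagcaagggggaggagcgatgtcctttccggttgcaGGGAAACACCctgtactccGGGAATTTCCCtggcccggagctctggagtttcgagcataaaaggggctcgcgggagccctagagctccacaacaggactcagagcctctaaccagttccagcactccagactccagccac

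**Figure D4:**
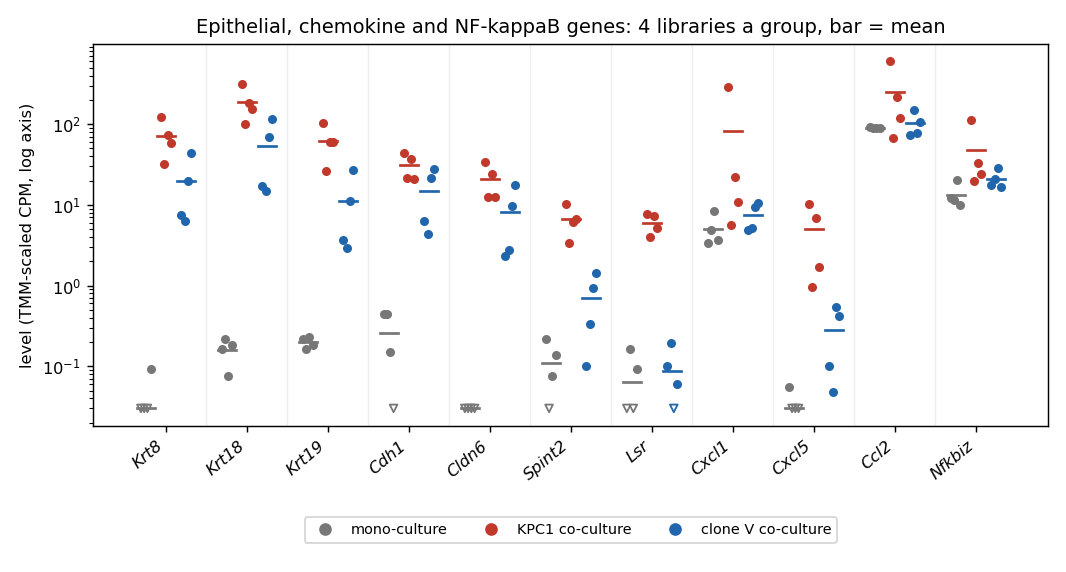
Levels of epithelial genes (Krt8 to Lsr) and of chemokine and NF-kappaB genes (Cxcl1 to Nfkbiz) in the 4 libraries of each group (vertical axis, TMM-scaled CPM on a log axis); bars are means, and open triangles are values under 0.03 CPM. KPC1 and clone V points overlap for the keratins and are separate for Spint2 and Lsr, and 1 KPC1 point, replicate 1, stands above the rest for Cxcl1, Ccl2 and Nfkbiz.

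DNA replication genes were lower with KPC1 by small amounts. All 18 were tested and had negative log2 fold changes, 7 were called lower (4.43% of all genes were), and the median was -0.31. Mcm2, a subunit of the replicative helicase, was at 283, 287, 332 and 334 CPM with KPC1 and at 379 to 633 CPM with clone V (log2 fold change -0.60, SE 0.13, edgeR adjusted p = 0.0033). Fen1, the flap endonuclease, was at 62.1, 66.6, 64.5 and 74.7 CPM against 117, 85.2, 89.7 and 90.8 CPM (log2 fold change -0.51, SE 0.11, edgeR adjusted p = 0.00257). In each of these the highest value was that of clone V replicate 1. The count was 3 without clone V replicate 1 or KPC1 replicate 1 and 0 in the fit to the 8 libraries, and DESeq2 called 10. Of the 18 mitosis genes, 1, Cenpf, was called higher with KPC1 and 0 lower, beside 6.30% and 4.43% of all genes tested. The call of Cenpf (log2 fold change 0.52, edgeR adjusted p = 0.048) was lost without KPC1 replicates 1, 3 or 4 (0.204, 0.114 and 0.0735). It was also lost without clone V replicates 1 or 2 (0.208 and 0.112) and in the fit to the 8 libraries (0.219).

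Other lists held no call. None of 16 integrated stress response genes, 19 sterol synthesis genes, 14 hypoxia response genes or 16 immediate early genes was called by edgeR or by DESeq2, and 3, 1, 3 and 1 of them had an unadjusted edgeR p under 0.05. None of 15 p53 targets and cell cycle inhibitors, 12 YAP and TEAD targets or 10 hedgehog response genes was called by edgeR, while DESeq2 called 1 of each list, and 2, 1 and 2 had an unadjusted edgeR p under 0.05. Their medians lay between -0.16 and 0.14.

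**Figure D5:**
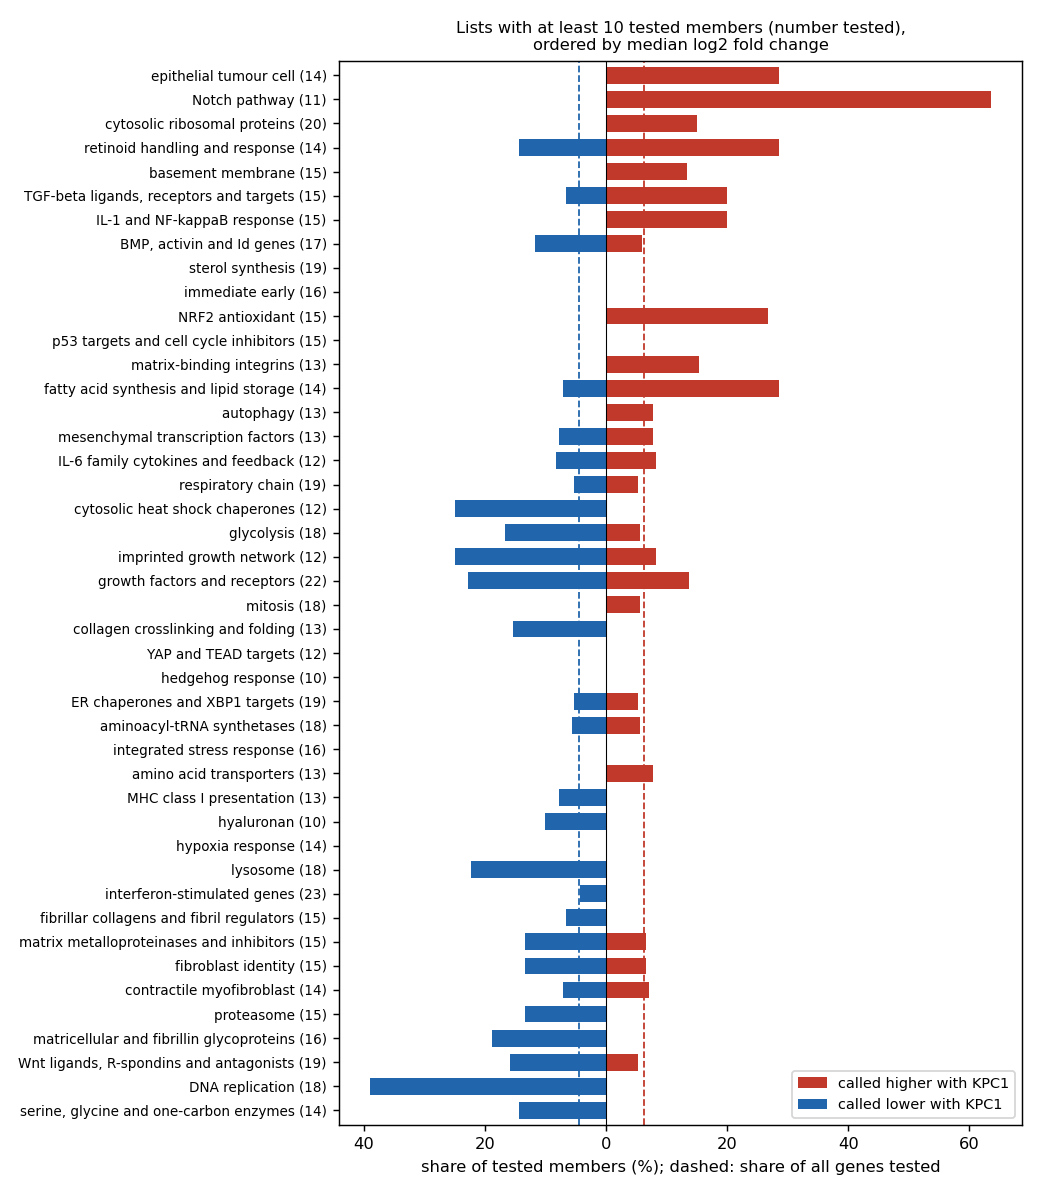
Share of tested members called higher (red, right) or lower (blue, left) with KPC1, for each gene list with at least 10 tested members, ordered by median log2 fold change; dashed lines are the shares over all genes tested, 6.30% higher and 4.43% lower. The Notch list reaches furthest to the right, with 7 of 11, and the DNA replication list furthest to the left, with 7 of 18.

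Among the 28 pairs of co-cultures, whose comparisons share libraries and are given only as a description, KPC1 against clone V had the ninth lowest count of genes called. KPC1 differed from clone H at 417 genes and from clone T at 774, and clone V differed from clone H at 56 and from clone T at 3462. Against clones E, N, K and M, KPC1 differed at 5102 to 8103 genes and clone V at 6100 to 8367.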

How the data were processed

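RNA was sequenced from sorted or mono-cultured fibroblasts as poly(A), strand-specific libraries made from 200 ng of total RNA with 14 amplification cycles and read as 76-bp paired ends. The authors deposited whole-number read counts for 39017 genes, with no scaling between libraries, and RPKM values for 37746 genes. The submitters' processing notes name STAR, featureCounts, edgeR and the mm10 build. Versions, settings and whether counting used strand are not given in the sources used here. The 36 library totals ran from 12532122 to 21985538 reads, and those of the 8 compared here from 16610556 to 21670728, so that counting error is small for abundant genes and 3 reads were taken as the floor. Intervals and floors cover counting error only.

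Counts were fitted with edgeR 4.0.16 in R 4.3.3: filterByExpr on the 9 groups (14439 genes left), TMM scaling, estimateDisp, glmQLFit with robust estimation and glmQLFTest, with 1 coefficient per group, no block and Benjamini-Hochberg adjustment over all genes tested. The threshold was 0.05. Standard errors were derived from the log2 fold change and the F-statistic. Levels are TMM-scaled CPM. No replicates were duplicates, since their counts differed by at least 20.0 times sampling noise (chi-square per degree of freedom).

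Singled-out genes had an adjusted p under 0.05, a mean of at least 2 CPM and no overlap between groups, predicted genes, microRNAs and pseudogenes left out: the 12 highest and 12 lowest fold changes, the 5 smallest p-values and the 5 largest differences in CPM, with Ifitm1 meeting 2 of these. Members of 58 gene lists were also named. The comparison, the lists and the rules were chosen with earlier results of these data known. Lists are described by counts and medians, with no set test. The script was tested on simulated data. Alternatives were RLE or no scaling, DESeq2 1.42.0, other filters, other sets of libraries, a replicate block, limma 3.58.1 on log2(RPKM + 1) and log2(RPKM + 0.1), a threshold of 0.1 and each library left out. The fit without mono-culture was added after the data were seen. Coordinates are from GENCODE, GRCm38, which is the build that mm10 names.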

Additional observations from a re-analysis of the deposited data

Results flagged for a closer look

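Of 212 sets of 4 replicate levels (106 genes named or weighed, each with KPC1 and with clone V), 20 held a library whose gap to its nearest neighbour exceeded Dixon's 95% critical value, where chance gives about 1 set in 20. KPC1 replicate 1 accounted for 6 of these: Cxcl1 at 292 CPM (the other 3 at 5.67 to 21.9), Nfkbiz at 113 (19.9 to 32.9), Nfkbia at 168 (36.2 to 50.7), Tnfaip3 at 91.3 (18.2 to 24.3), Aldh1a3 at 12.4 (2.22 to 2.45) and Tgfb1 at 184 (136 to 144).

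KPC1 replicate 2 stood apart for Igfbp5 at 0.0603 CPM (the others at 0), Igfbp7 at 397 (305 to 317), Lef1 at 24.7 (15.8 to 16.8) and Ptchd4 at 4.82 (2.22 to 2.53), and KPC1 replicate 3 for Ccbe1 at 3.76 (1.77 to 1.85). The Igfbp5 value with KPC1 is 1 read, under the floor of 3 reads, and any single read beside libraries at 0 would be flagged. Clone V replicate 1 stood apart for Acan at 1.48 CPM (0.109 to 0.144), Col18a1 at 573 (404 to 419), Dhrs3 at 0.661 (2.93 to 3.18) and Smagp at 0 (0.433 to 0.479).

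Clone V replicate 2 stood apart for Hey1 at 4.28 CPM (1.79 to 2.09), Igfbp5 at 1.16 (0.109 to 0.203) and Nkd1 at 40.6 (9.11 to 12.2), and clone V replicate 4 for Ccbe1 at 16.1 (9.46 to 10.4) and Rbp4 at 3.17 (0.481 to 0.708). Hey1, Ccbe1, Rbp4, Smagp and Aldh1a3 stayed called whichever of the 8 libraries was left out.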

How the results depend on the processing

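The count of 1550 genes was 133 in the fit to the 8 libraries compared, 2438 with a replicate block in 36 libraries, 117 with the block in 8, 2520 at a threshold of 0.1, and 595 to 1817 with a library left out. The count of 448 genes at 2-fold or more was 105 in the 8 libraries, 93 with the block in 8, 165 with at least 10 counts in every library, 108 on log2(RPKM + 1), and 240 to 566 with a library left out. RLE or no scaling, DESeq2 (1941 calls), no filter, log2(RPKM + 0.1) and the fit without mono-culture (1275 calls) kept both within 1.5 times. The common biological coefficient of variation was 0.173 with 36 libraries and 0.207 with 8; the cause of the lower count was not tested.

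Replicate numbers showed no clear pairing of KPC1 with clone V libraries, and no label says whether they mark a shared batch. The block on replicate number in 36 libraries kept 99.8% of the 1550 calls among its 2438. Deviations of same-numbered KPC1 and clone V libraries correlated at -0.151, 0.167, 0.139 and 0.0262 over genes, and only replicate 2 correlated best with its own number. Over 106 genes and 20 alternatives, 1768 of 2066 values kept their direction and side of the threshold, 259 lost and 32 gained a call, and 7 changed sign. None of the sign changes was a called gene: with a library left out, Tnfaip3 ran from -0.18 to 0.91, Nfkbia from -0.13 to 0.89, Notch2 from -0.13 to 0.081, Cxcl10 from -0.38 to 0.10 and Pdgfra from -0.12 to 0.31.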

Other observations

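Lipid and redox genes, not described above, included several that were higher with KPC1. Of 14 tested genes of fatty acid synthesis and lipid storage, 4 were higher and 1 was lower (6.30% and 4.43% of all genes tested were). Pparg, the regulator of fat cell formation, was at 14.9, 14.8, 13.3 and 9.52 CPM with KPC1 and at 3.87, 4.72, 7.90 and 7.48 CPM with clone V (log2 fold change 1.14, SE 0.21, edgeR adjusted p = 0.000811; 0.06 in the fit to the 8 libraries), with mono-culture at a mean of 12.6 CPM. Cebpa, which acts with it, was at 3.53, 2.05, 2.96 and 2.17 CPM against 0.356, 0.626, 0.599 and 1.02 CPM (log2 fold change 2.05, SE 0.45, edgeR adjusted p = 0.00413). The list count of 5 was 2 without KPC1 replicate 1 and 3 without KPC1 replicate 3 or any of the clone V libraries. Of 15 tested NRF2 antioxidant genes, 4 were higher with KPC1 and 0 lower, again beside 6.30% and 4.43% of all genes tested. Of the NRF2 genes, 2 were called without KPC1 replicate 1, KPC1 replicate 3 or clone V replicate 1.

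All 20 cytosolic ribosomal protein genes tested had positive log2 fold changes, with a median of 0.31, and 3 were called higher with KPC1, beside 6.30% of all genes tested. That count was 0 without KPC1 replicates 1 or 4, without clone V replicates 1 or 2 and in the fit to the 8 libraries, and 1 without clone V replicate 3, while DESeq2 called 6. Of 18 tested lysosomal genes, 4 were lower with KPC1 and 0 higher (4.43% and 6.30% of all genes tested were), with a median of -0.17. Of the lysosomal genes, 2 were called without KPC1 replicate 1 or clone V replicate 1. In the fit to the 8 libraries 1 lipid gene and 0 NRF2 and lysosomal genes were called.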
